A study of Homo sapiens with 92 samples.

Results

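The clustered histone genes are the genes whose symbol in the deposited tables starts with HIST1H, HIST2H, HIST3H or HIST4H. This naming rule found 85 of the 49186 genes named in the files, and it used no measured value. They comprised 8 H1, 20 H2A, 26 H2B, 15 H3 and 16 H4 genes. By cluster, 64 belonged to HIST1, 16 to HIST2, 4 to HIST3 and 1 to HIST4. Of 79 that matched the RefSeq gene table, 62 were protein coding and 17 were pseudogenes. New RNA was measured by SLAM-seq, in which cells take up 4-thiouridine (4sU) and iodoacetamide turns its sites into T-to-C conversions. Reads with a conversion are called converted reads here. The library kit takes total RNA depleted of ribosomal RNA, so RNA without a poly(A) tail was in reach.

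Histones H2A, H2B, H3 and H4 form the nucleosome core, and H1 is the linker histone that binds where DNA enters and leaves it. The clustered genes supply histones for newly replicated DNA and are transcribed mainly in S phase, in nuclear bodies organised by the coactivator NPAT. Their mRNAs mostly lack introns and end in a stem-loop, bound by SLBP, in place of a poly(A) tail. Some of the genes also give longer polyadenylated transcripts.

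All groups, vehicle controls included, were labelled with the genotype mGreenLantern-P2A-FKBP12(F36V)-NIPBL. The tag lets the degrader dTAGV-1 remove NIPBL, the protein that loads cohesin on DNA, and DMSO was the vehicle. Most libraries (84 of 92) were made from hTERT RPE-1 cells, which are retinal pigment epithelium immortalised with telomerase. All of these were of the clone NIPBL-D7, so they describe 1 clone. These cells were synchronised with 2 mM thymidine and held in mitosis with 20 ng/ml nocodazole for 120 min, then collected by shake-off and released. In the mitosis series, dTAGV-1 or DMSO was given during the 120 min of arrest and kept after release. It held 4, 3, 4, 4 and 3 dTAG libraries and 3, 3, 4, 4 and 4 DMSO libraries at 0, 30, 60, 90 and 120 min after release. At 4, 6 and 8 h it held 2 libraries per drug and time. In the release series the drug time was counted from release, and 3 dTAG and 3 DMSO libraries were made at each of 30, 60, 90 and 120 min. All of these had 15 min of 100 µM 4sU. Both series also had 3 dTAG and 3 DMSO libraries at 120 min with 120 min of 4sU. The other 8 libraries, 2 per drug and cell type, were cardiomyocytes or neurons made from the human stem cell line WTC11, after 4 h of dTAG or DMSO with 120 min of 4sU.

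The label fields disagree for the WTC11 libraries, since their source and cell line fields name hTERT RPE-1. Markers set them apart from the RPE-1 libraries, with tables scaled separately: 9 cardiomyocyte genes summed to 1511 to 1837 converted reads per 1000000 (CPM) in dTAG and 1981 to 2337 CPM in DMSO cardiomyocytes, against at most 9.83 CPM in RPE-1. The neuron list as a whole did not separate, since its sum reached 2214 CPM in RPE-1, mostly from SYT1. Of its members, chosen after their values were seen, DCX had 161 to 166 CPM in dTAG and 150 to 164 CPM in DMSO neurons, against at most 3.69 CPM in RPE-1. STMN2 had 169 to 187 CPM in dTAG and 180 to 211 CPM in DMSO neurons, against at most 1.95 CPM in RPE-1. MAP2, NEFL, RBFOX3 and SNAP25 also lay above RPE-1 in every neuron library, whereas SYT1, TUBB3 and SYN1 overlapped with RPE-1. TUBB3 had 0.352 to 0.745 CPM in dTAG and 0.691 to 0.728 CPM in DMSO neurons, against up to 2.43 CPM in RPE-1. SYN1 had 3.00 to 3.73 CPM in dTAG and 1.89 to 2.90 CPM in DMSO neurons, against up to 2.46 CPM in RPE-1. The depth was 10.7 to 114 M (1 M is 1000000) reads and 0.420 to 35.4 M converted reads per library. Nothing in the labels says that replicates were separate cultures, so p-values measure the spread between these samples. No library without 4sU was analysed here, so the conversion background was not measured. RNA came from bulk cells, in which fewer transcribing cells and less new RNA per cell cannot be told apart.

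Of the 85 members, 15 had a converted read in every library, and 12 had fewer than 10 converted reads over all libraries together. Coding sequences of one histone class are nearly alike and how reads matching several copies were counted is not given in the sources used here, so values of single members are uncertain in that respect. The annotated span was at most 1000 bases for 57 members and over 2000 bases for 20. Spans overlapped another gene on the opposite strand for 14 members and on the same strand for 5, and strand use in counting is likewise not given.

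Promoter windows were matched in RefSeq (GRCh38.p14) for 57 members. A stretch of 130 bases before the start in RefSeq is shown for 1 or 2 members of each class. It lets the elements that set the classes apart be read. All 6 lie on chromosome 6, at chr6:26056471-26056600 on the minus strand (HIST1H1C), chr6:26124042-26124171 on the plus strand (HIST1H2AC), chr6:27132796-27132925 on the minus strand (HIST1H2BJ), chr6:27838439-27838568 on the plus strand (HIST1H2BN), chr6:26032100-26032229 on the minus strand (HIST1H3B) and chr6:26204480-26204609 on the plus strand (HIST1H4E). For HIST1H2BN the RefSeq start lies inside the gene span of the deposited tables, which begins upstream, so the stretch shown is not at that start. Capitals mark matches on either strand. The motif TATAAA is known as the TATA box and CCAAT as the CCAAT box. The octamer ATTTGCAT is bound by OCT factors, AAACACA is the H1 box, and GGTCCG is the core of the H4 element bound by HINFP. Matches to the reverse strand read ATTGG for the CCAAT box and ATGCAAAT for the octamer, and no matches overlapped.
HIST1H1C: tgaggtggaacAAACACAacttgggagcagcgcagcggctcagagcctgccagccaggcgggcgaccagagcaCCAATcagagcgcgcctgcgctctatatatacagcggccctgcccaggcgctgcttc
HIST1H2AC: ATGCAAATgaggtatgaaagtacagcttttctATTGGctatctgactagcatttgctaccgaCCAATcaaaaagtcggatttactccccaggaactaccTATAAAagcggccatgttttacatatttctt
HIST1H2BJ: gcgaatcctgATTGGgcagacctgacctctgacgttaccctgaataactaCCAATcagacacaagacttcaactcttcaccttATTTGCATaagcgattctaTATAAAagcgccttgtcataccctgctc
HIST1H2BN: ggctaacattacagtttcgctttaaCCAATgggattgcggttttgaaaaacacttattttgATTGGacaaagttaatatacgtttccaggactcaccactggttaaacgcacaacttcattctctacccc
HIST1H3B: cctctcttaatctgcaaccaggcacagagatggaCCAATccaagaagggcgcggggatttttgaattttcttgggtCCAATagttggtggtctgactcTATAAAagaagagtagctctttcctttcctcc
HIST1H4E: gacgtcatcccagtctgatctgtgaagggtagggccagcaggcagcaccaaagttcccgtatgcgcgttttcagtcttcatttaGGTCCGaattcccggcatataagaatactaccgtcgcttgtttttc

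In the 250 bases before the start, both strands, TATAAA was found in 40 of 57 members (70.2%), against 10.7% of the 35116 RefSeq promoters. CCAAT was found in 47 of 57 (82.5%), against 32% of all promoters. It was present in each H1, H2A, H2B and H3 window and in 3 of 13 H4 windows. The octamer was found in 9 of 14 H2A and 9 of 13 H2B windows and in none of the others, against 1.63% of all promoters. The H1 box was in 6 of 6 H1 windows and in none of the windows of the other classes, against 4.82% of all promoters. GGTCCG was in 12 of 13 H4 windows and in 1 window each of H2A, H2B and H3, against 9.43% of all promoters. Neighbouring H2A and H2B genes on opposite strands can share window bases, so the same site can be counted for both. The H2A and H2B windows with GGTCCG were such neighbours. HIST2H2AC starts at chr1:149886975 on the plus strand, and the span of HIST2H2BE ends at chr1:149886652 on the minus strand. Among the stretches shown, counting back from the start, the TATA box began at position -31 in HIST1H2AC, -28 in HIST1H2BJ and -32 in HIST1H3B. These matches describe letters in a window and not bound sites.

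The first comparison followed converted histone reads out of mitosis. In DMSO the clustered histone genes together made 0.0170, 0.0304 and 0.0232% of converted reads at 0 min. They made 0.0524, 0.0493, 0.0498 and 0.0547% at 60 min, and 0.0875, 0.0873, 0.208 and 0.0962% at 120 min. All 60 min libraries lay above all 0 min libraries and below all 120 min libraries. At 4 h the share was lower again, at 0.0463 and 0.0331%, and at 8 h it was 0.0294 and 0.0290%. Replicate 3 at 120 min was the highest DMSO library of the series with 15 min of 4sU.

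**Figure D1:**
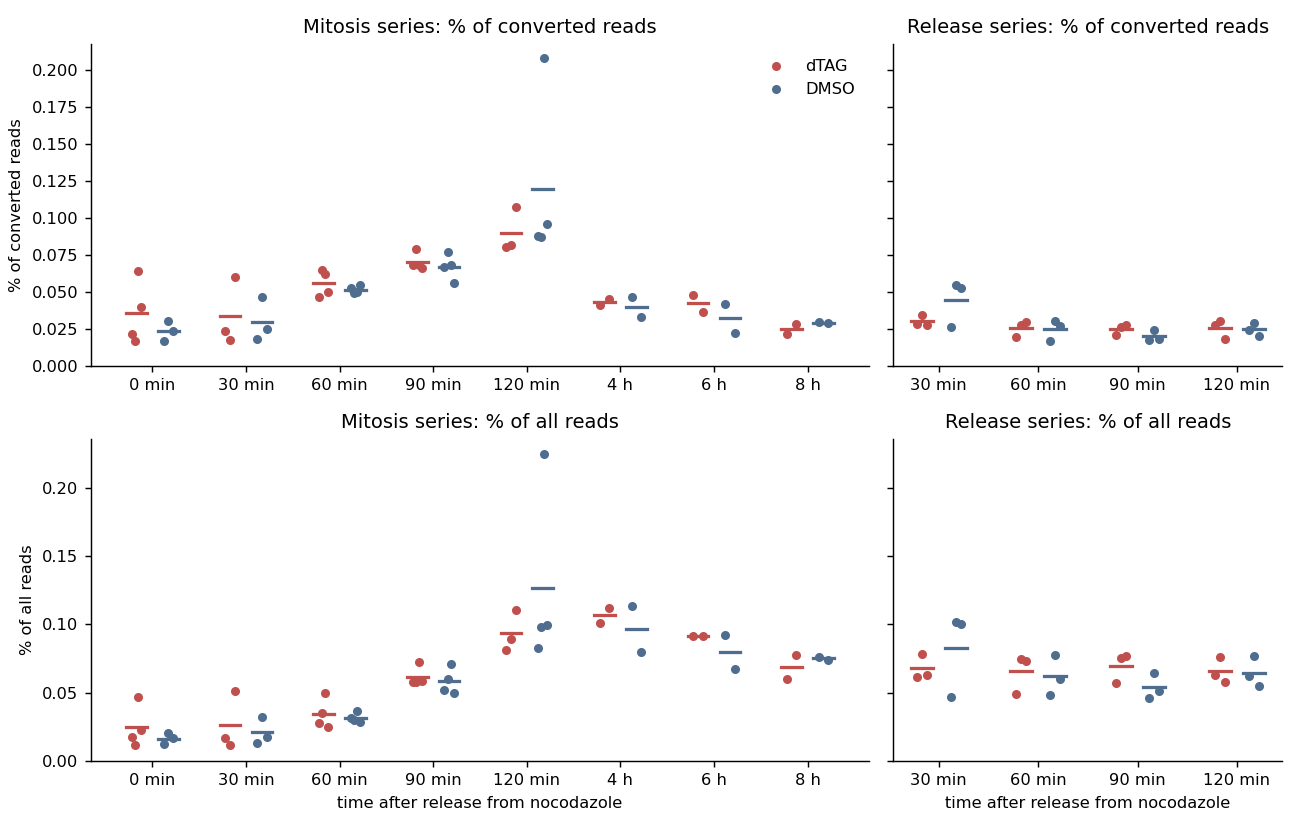
Clustered histone genes as a percentage of converted reads and of all reads, against time after release, in the mitosis and release series with 15 min of 4sU. Points are single libraries of dTAG and DMSO, and lines are group means. In the mitosis series the converted share reached 0.0873 to 0.208% in DMSO at 120 min, while in the release series it stayed between 0.0169 and 0.0548% in DMSO.

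Tests on single genes used edgeR's quasi-likelihood test over the 14220 genes that passed the filter on low counts, of which 33 were members. A gene is called where its Benjamini-Hochberg adjusted p was under 0.05, and changes are log2 ratios of converted reads with their standard error (SE). Against 0 min in DMSO, 25 members rose at 120 min and none fell, with a median log2 change of 2.92 over the 33, against 0.06 over all genes. In that comparison 27.8% of all genes were called, and 14.7% were called higher. At 60 min, 13 members rose and none fell (median 1.26, against 0.02 over all genes), where 35.9% of all genes were called and 22.1% called higher. At 90 min 14 members rose (24.3% of all genes called), and at 30 min edgeR called 0 members, with 0 at an unadjusted p under 0.05, and 0% of all genes. Without replicate 3 of DMSO at 120 min, 19 members rose at 120 min. Leaving out each replicate number in turn gave 6 to 12 risers at 60 min, with 6 without replicate 2 and 7 without replicate 4, and 16 at 120 min without replicate 4. With members that had no converted read at 0 min set at their bound, the medians were 1.22 at 60 min and 2.88 at 120 min. These comparisons share their 0 min libraries.

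At 60 min, relative to each gene's all reads, 5 members rose and none fell (23.1% of all genes called). The rise at 120 min was also present in all reads, where 49 of 60 tested members rose in DMSO and 21.5% of all genes were called. Set relative to each gene's all reads, however, the converted reads of 1 member fell and of none rose (16.1% of all genes called). The median member change was -0.08 on that relative scale. The converted share of histone reads in DMSO was 3.43 to 5.01% at 0 min, 5.84 to 7.47% at 60 min and 3.23 to 3.82% at 120 min, so the 60 min libraries lay above both ends. Over all genes of a library that share was 2.44 to 3.32% at 0 min, 3.47 to 4.43% at 60 min and 3.05 to 4.13% at 120 min. The histone reads include those of HIST1H4C, whose converted share stood apart, as described below. Over the other members with at least 100 reads, the median was 2.28% at 0 min, 5.00% at 60 min and 2.53% at 120 min. Over all genes with at least 100 reads it was 2.54, 4.21 and 3.33%.

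Members divided by when they rose. HIST1H2AC, an H2A gene at chr6:26124145-26139116 (hg38, plus strand), had 11.4, 13.7 and 11.2 CPM in DMSO at 0 min, 60.3, 85.6, 72.5 and 71.9 CPM at 60 min, and 64.5, 99.7, 131 and 79.2 CPM at 120 min. Its 60 min libraries lay above all 0 min libraries and overlapped with those at 120 min. The log2 change was 2.61 ± 0.35 (SE) at 60 min against 0 min (edgeR adjusted p = 9.7e-07) and 0.30 ± 0.25 at 120 min against 60 min (adjusted p = 0.39). HIST1H4H, an H4 gene at chr6:26277609-26285638 on the minus strand, followed a similar course. It had 2.37, 2.93 and 4.29 CPM at 0 min, 17.8, 21.7, 22.2 and 23.0 CPM at 60 min and 19.6, 19.1, 46.3 and 22.9 CPM at 120 min, and rose by 2.78 ± 0.41 at 60 min (adjusted p = 3.5e-06).

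HIST1H2BN rose at 60 min and fell between 60 and 120 min. It is an H2B gene. It had 11.4, 12.7 and 14.6 CPM in DMSO at 0 min, 54.7, 48.6, 34.5 and 52.0 CPM at 60 min, 24.6, 21.0, 17.4 and 12.2 CPM at 90 min, and 12, 12.9, 11.6 and 11.1 CPM at 120 min. The 60 min libraries overlapped with none of the others, whereas those at 0 and 120 min lay in the same range. The log2 change was 1.91 ± 0.26 at 60 min against 0 min (adjusted p = 1e-06), -2.01 ± 0.23 at 120 min against 60 min (adjusted p = 8.4e-08) and -0.10 ± 0.29 at 120 min against 0 min (adjusted p = 0.87). Its annotated span, chr6:27837760-27865798 on the plus strand, covers HIST1H2AK at chr6:27837947-27838339 on the minus strand, so reads of the 2 genes may be mixed. HIST1H2BC, another H2B gene, had 6.64, 9.75 and 12.9 CPM at 0 min, 36.9, 34.8, 20.7 and 39.4 CPM at 60 min and 20.2, 15.5, 41.4 and 21.1 CPM at 120 min. It rose by 1.83 ± 0.31 at 60 min (adjusted p = 3.3e-05), and 120 min did not differ from 60 min beyond the spread (-0.58 ± 0.25, adjusted p = 0.082).

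The H1 genes rose later. HIST1H1C, which encodes a linker histone at chr6:26055787-26056428 on the minus strand, had 6.16, 18.5 and 12 CPM in DMSO at 0 min, 13.9, 11.6, 31.6 and 18.1 CPM at 60 min, 49.3, 62.2, 89.7 and 66.1 CPM at 90 min, and 89.8, 83.1, 298 and 106 CPM at 120 min. The 60 min libraries overlapped with those at 0 min, and those at 90 min lay above both. It rose by 2.86 ± 0.53 at 120 min against 60 min (adjusted p = 9.3e-05), where the change at 60 min against 0 min was 0.72 ± 0.72 (adjusted p = 0.45). HIST1H1E, another linker histone gene at chr6:26156354-26157107 on the plus strand, had 1.42, 6.83 and 3.44 CPM at 0 min, 5.58, 4.86, 13.3 and 9.42 CPM at 60 min and 46.8, 44.4, 232 and 79.7 CPM at 120 min. Replicate 3 was the highest of the 120 min libraries in both genes, and no 120 min library overlapped with the 60 min ones. HIST1H1E rose by 3.50 ± 0.60 between those times (adjusted p = 4.1e-05), and HIST1H1B, the remaining H1 gene tested, by 2.68 ± 0.79 (adjusted p = 0.01). Relative to each gene's all reads, the change from 60 to 120 min was -0.15 for HIST1H1C and -0.23 for HIST1H1E. Their converted reads thus rose no more than their all reads.

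**Figure D2:**
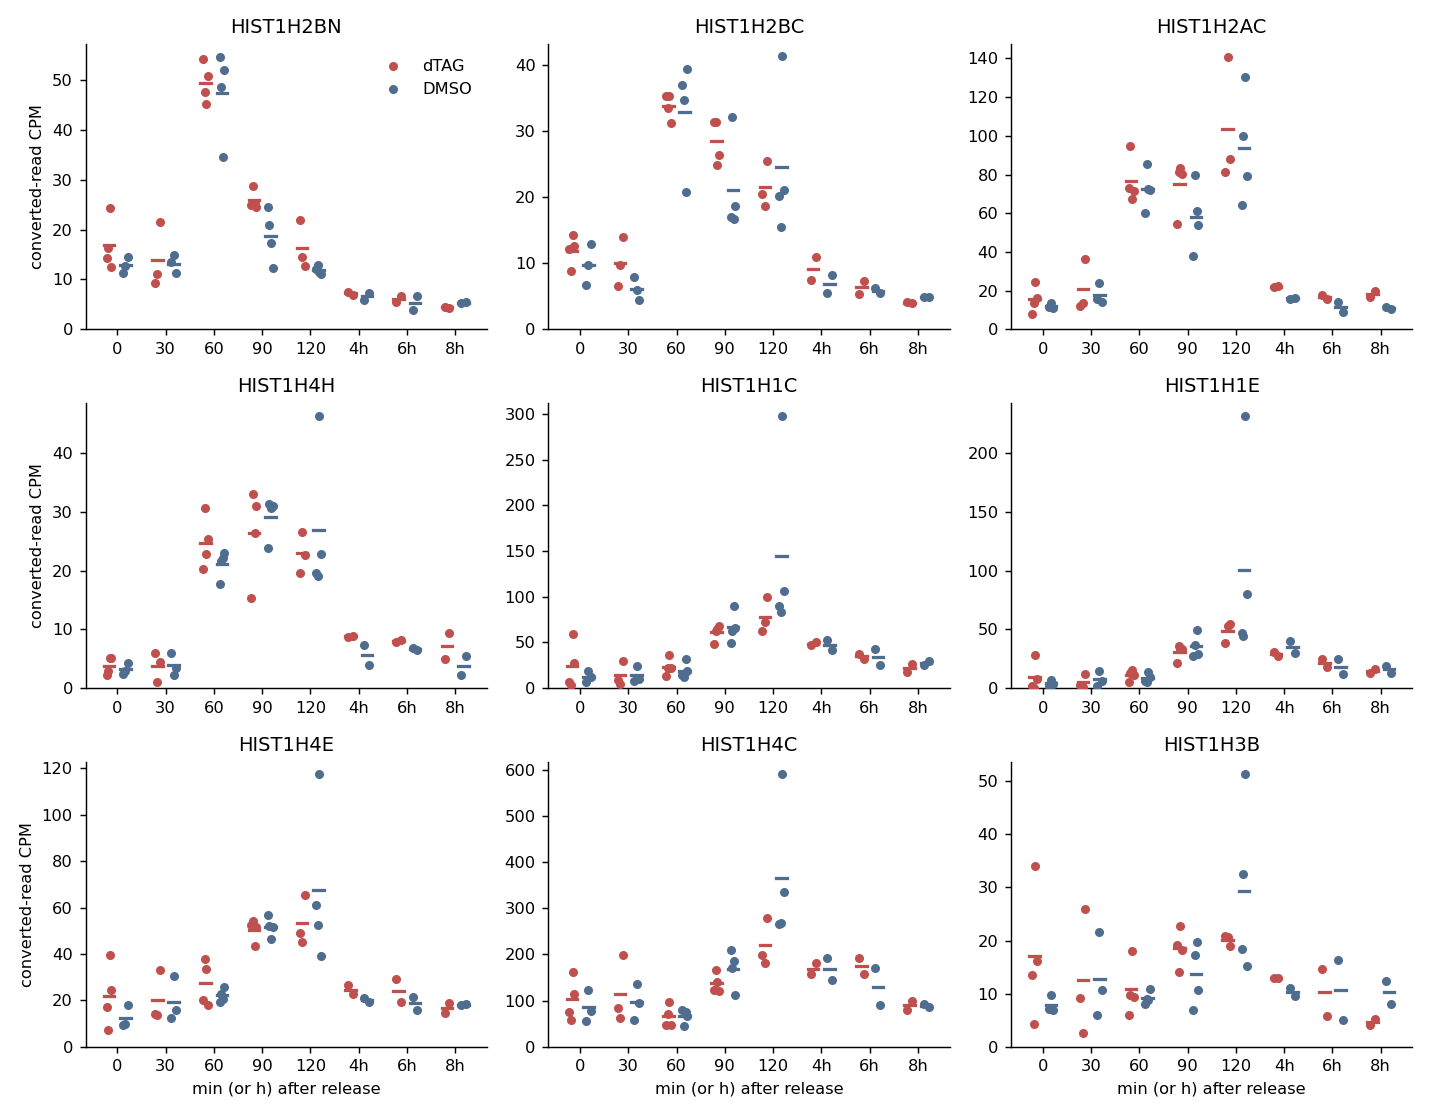
Converted reads per 1000000 TMM-scaled converted reads (CPM) for 9 members, against time after release, in each library (points, with lines at group means) of the mitosis series with 15 min of 4sU. HIST1H2BN was highest at 60 min, HIST1H2AC and HIST1H4H were high from 60 to 120 min, and HIST1H1C and HIST1H1E were highest at 120 min.

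Between 60 and 120 min in DMSO, 16 members rose and 1, HIST1H2BN, fell, with a median of 1.54 (29.5% of all genes called, 10.7% called higher). By class the risers were 3 of 3 H1, 5 of 10 H2A, 1 of 10 H2B, 3 of 5 H3 and 4 of 5 H4 genes. Between 0 and 60 min they were 0 of 3 H1, 3 of 10 H2A, 6 of 10 H2B, 2 of 5 H3 and 2 of 5 H4 genes. The comparison of 120 with 60 min was chosen after the 60 min values had been seen, and both comparisons use the 60 min libraries. HIST1H4B, an H4 gene, was the 1 member called in both, with 0, 5.85 and 0.859 CPM at 0 min, 5.23, 4.49, 8.88 and 9.07 CPM at 60 min and 31.0, 22.2, 44.7 and 28.7 CPM at 120 min. On all reads 29 members rose and 1 fell between 60 and 120 min (10.3% of all genes called). Relative to all reads 13 fell and 1 rose (29.1% of all genes called), and 3 members were called on both scales.

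Other members did not all keep to these courses. HIST1H2AK, HIST1H2BJ and HIST1H3E were, like HIST1H2BN, called higher at 60 min but not at 120 min, both against 0 min. HIST1H4E, an H4 gene at chr6:26204552-26206038 on the plus strand, had 9.48, 9.75 and 18.0 CPM at 0 min, 19.2, 22.8, 20.7 and 25.8 CPM at 60 min and 61.3, 52.7, 117 and 39.3 CPM at 120 min, and rose by 1.5 ± 0.34 between 60 and 120 min (adjusted p = 0.0011). HIST1H3B, an H3 gene at chr6:26031650-26032060 on the minus strand, had 7.11, 9.75 and 6.87 CPM at 0 min, 8.02, 8.97, 8.88 and 10.8 CPM at 60 min and 18.3, 32.5, 51.3 and 15.2 CPM at 120 min. Its 0 and 60 min values overlapped, and it rose by 1.54 ± 0.48 after 60 min (adjusted p = 0.014). HIST1H2BD, an H2B gene, rose by 2.56 ± 0.50 at 60 min and by 3.27 ± 0.50 at 120 min, both against 0 min. HIST2H3D, an H3 gene, had 41 converted reads over the DMSO libraries at 120 min and 0 at 0 min, which makes it at least 10.1-fold higher at 120 min with a floor of 3 reads over the group.

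The members that rose at 60 min were mostly those with long annotated spans. Of 11 tested members spanning over 2000 bases, 9 rose at 60 min against 0 min in DMSO (median log2 change 1.83). Of 22 shorter members 4 rose (median 1.03). Between 60 and 120 min the counts were 1 of 11 long members (median 0.08) and 15 of 22 short members (median 2.03). In dTAG, 8 of 11 long and 1 of 22 short members rose at 60 min. The cutoff of 2000 bases was chosen with the values in view, and longer spans collect more reads of any kind, so these counts are a description.

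**Figure D3:**
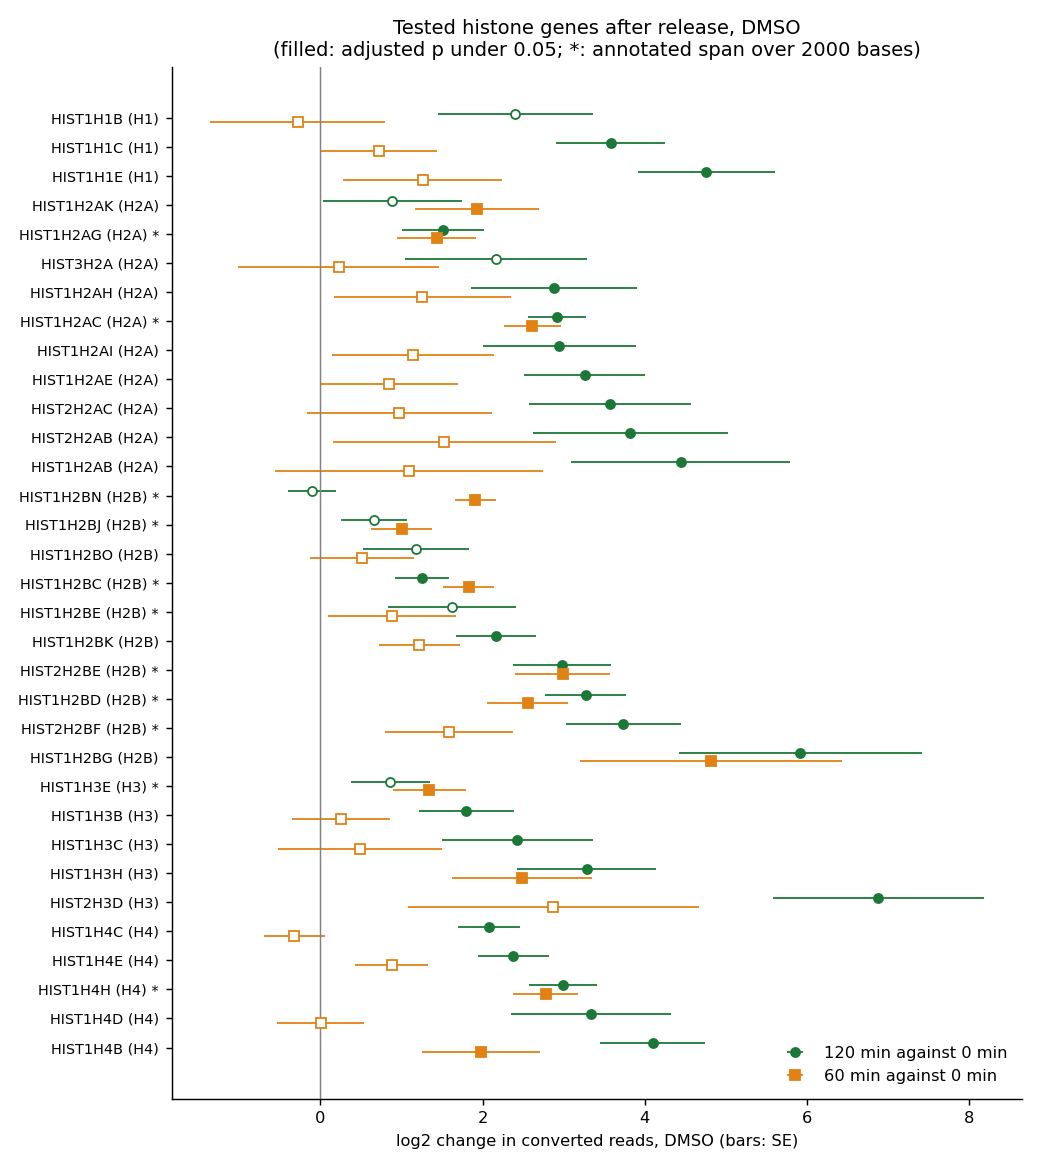
Log2 change in converted reads with SE for the 33 tested members in DMSO, at 60 min (orange squares) and at 120 min (green circles), both against 0 min. Filled symbols are called, and stars beside names mark spans over 2000 bases. At 60 min 9 of 11 starred and 4 of 22 other members are called, and at 120 min 25 of the 33 are.

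Members also rose in dTAG against its own 0 min libraries. There 9 members rose at 60 min (38.1% of all genes called), 14 at 90 min (31.7%) and 16 at 120 min (25.2%), none fell at those times, and at 30 min edgeR called 0 members, with 1 at an unadjusted p under 0.05. Of the 16 called at 120 min in dTAG, 15 were among the 25 called in DMSO. Replicate 3 at 0 min in dTAG had 0.0641% of converted reads in members, above the 0.0217, 0.0167 and 0.0394% of the others. Without that library 25 members rose at 120 min in dTAG (median 2.56), against 16 with it (median 1.55). Without replicate number 1, 2 or 4 of all groups the count was 8, 6 or 7. Relative to all reads 2 fell and none rose at 120 min, where 24.1% of all genes were called.

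Several genes that act on histone genes also rose at 60 min. Of 20 tested genes of the histone locus body, histone transcription and 3′ end processing, 8 rose and 1 fell at 60 min against 0 min in DMSO, where 35.9% of all genes were called and 22.1% called higher. HINFP, which binds the H4 element, rose by 1.34 ± 0.21, and NPAT by 1.08 ± 0.20. NPAT had 57.4, 41.0 and 36.9 CPM at 0 min, 86.1, 102, 90.3 and 106 CPM at 60 min and 44.3, 30.5, 18.2 and 30.5 CPM at 120 min. SLBP, which binds the stem-loop, had 68.8, 74.1 and 64.4 CPM at 0 min, 110, 128, 114 and 118 CPM at 60 min and 37.3, 57.8, 48.0 and 50.4 CPM at 120 min. Both were thus highest at 60 min, and at 120 min 1 gene of the list was higher than at 0 min and 6 were lower, SLBP among them (-0.52 ± 0.16). CASP8AP2, a component of the histone locus body, fell by 0.95 ± 0.15 on the log2 scale at 120 min.

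Replacement histone genes lie outside the clusters. Of 10 tested, 1 rose and 1 fell at 120 min against 0 min in DMSO, where 14.7% of all genes were called higher and 13.1% lower. H3F3B, which encodes a replacement H3, rose by 0.75 ± 0.19, and CENPA, the centromeric H3, had a change of -1.33 ± 0.19. Of 12 histone chaperones 1 rose and 6 fell, among them HJURP, the CENPA chaperone (-1.93 ± 0.20), and CHAF1A, a subunit of the chromatin assembly factor CAF-1 (-1.72 ± 0.22). Of 24 G1/S and replication genes 0 rose and 11 fell, and of 15 mitotic genes 0 rose and 12 fell. The summed new RNA of the mitotic genes was 7141 to 10067 CPM at 0 min, 3619 to 5398 CPM at 60 min and 2627 to 4526 CPM at 120 min. Its part in the histone values was not tested.

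As a part of all converted reads, the converted reads of members were lower again at the late times. Against DMSO at 120 min, 15 of 36 tested members fell at 4 h, 23 at 6 h and 23 at 8 h, with none higher, where 32.1, 37.8 and 42.3% of all genes were called. The labels name no batches, so early and late libraries cannot be told apart from batches by time. These comparisons were not repeated under the alternatives, and their 120 min libraries include the high replicate 3. The median converted share over all genes with at least 100 reads was 3.33% at 120 min and 5.56, 6.63 and 7.97% at 4, 6 and 8 h in DMSO. Over such members, HIST1H4C left out, it was 2.53, 1.82, 1.99 and 3.09%. The same medians in DMSO at 0 min were 2.54% over all genes and 2.28% over such members. How much of any of them was conversion background was not measured. Within the late set, 7 members fell between 4 and 8 h in dTAG and 5 in DMSO, where 12.2% and 13.3% of all genes were called. HIST1H1C had 17.6 and 26.6 CPM at 8 h, against 46.7 and 49.9 CPM at 4 h in dTAG, and 25.3 and 29.9 CPM against 53.0 and 42.1 CPM in DMSO. The 8 h libraries lay below the 4 h ones in both arms, with changes of -1.10 ± 0.25 in dTAG (adjusted p = 0.0077) and -0.78 ± 0.23 in DMSO (adjusted p = 0.032). With scaling by all read totals, which moved the median of all genes to 0.58, 1 member was lower and 2 were higher in DMSO, and relative to all reads 2 were lower. The DMSO count of 5 was 0 without replicate 1 at 4 h or without replicate 2 at 8 h, and 1 without replicate 1 at 8 h. Over the same hours 15 of 25 G1/S genes rose in DMSO and 1 fell.

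The effect of removing NIPBL was asked first in mitosis. At 0 min edgeR called 0 of 33 members and 0% of all genes between dTAG and DMSO, with 2 members at an unadjusted p under 0.05, and DESeq2 called 0. The median log2 change was 0.85 and 31 of 33 were positive. Without replicate 3 of dTAG the median was 0.08, so it rested on that library. HIST1H1C had 6.4, 2.94, 59.4 and 27.3 CPM in dTAG and 6.16, 18.5 and 12 CPM in DMSO, so the dTAG libraries lay on both sides of DMSO.

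After release, edgeR called 0 of 33 members in the average over 30 to 120 min (1.27% of all genes), with 3 at an unadjusted p under 0.05, and DESeq2 called 0. The median change was 0.10 and the median SE of a member 0.28. At 120 min the median was -0.23, with 25 of 33 negative, and edgeR called 0, with 1 at an unadjusted p under 0.05 (0.949% of all genes called). The members made 0.0806, 0.0817 and 0.107% of converted reads in dTAG at 120 min, against 0.0875, 0.0873, 0.208 and 0.0962% in DMSO. The DMSO library with 0.208% had no dTAG library of the same number, and the median without it was not taken. HIST1H2AC had 81.5, 141 and 88.0 CPM in dTAG at 120 min, within the range of 64.5 to 131 CPM in DMSO but for 1 library. HIST1H2BN had 54.3, 47.7, 45.2 and 50.8 CPM in dTAG at 60 min, against 54.7, 48.6, 34.5 and 52.0 CPM in DMSO, so its early peak was present in both arms. At 120 min it had 21.9, 14.4 and 12.8 CPM in dTAG, against 12, 12.9, 11.6 and 11.1 CPM in DMSO (0.45 ± 0.27, adjusted p = 0.47).

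With the drug counted from release, edgeR called 0 of 22 tested members in the average over 30 to 120 min (2.27% of all genes), with 0 at an unadjusted p under 0.05, and DESeq2 called 0. The median SE of a member was 0.21 there. In this series members made 0.0277, 0.0300 and 0.0181% of converted reads in dTAG at 120 min, against 0.0243, 0.0291 and 0.0200% in DMSO. At 30 min they made 0.0283, 0.0344 and 0.0274% in dTAG, against 0.0263, 0.0548 and 0.0523% in DMSO, so the later values were not above the earlier ones. HIST1H2AG, an H2A gene, had 5.73, 7.28 and 10.7 CPM at 120 min, against 41.7, 35.6 and 8.99 CPM at 30 min in DMSO. Its groups overlapped, since replicate 3 was low at 30 min. The change was -1.82 ± 0.46 (adjusted p = 0.036), the 1 member called of 22 (2.36% of all genes called).

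At 4 to 8 h, 2 members passed the test between dTAG and DMSO. HIST1H2AC had 21.7 and 22.1 CPM in dTAG at 4 h, against 15.9 and 16.1 CPM in DMSO. At 6 h it had 17.6 and 15.8 CPM in dTAG, against 14.1 and 8.89 CPM in DMSO. At 8 h it had 16.6 and 19.5 CPM in dTAG, against 11.7 and 10.5 CPM in DMSO. The dTAG libraries were higher than the DMSO ones at each time. The average log2 change was 0.55 ± 0.14 (adjusted p = 0.0078), the 1 call among 31 tested members where 19.8% of all genes were called. On all reads the change was 0.05 (adjusted p = 0.78), and relative to all reads it was 0.44 (adjusted p = 0.066).

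HIST1H3C, an H3 gene at chr6:26045411-26045821 on the plus strand, had 2.60 and 2.07 CPM in dTAG at 8 h, against 7.05 and 5.23 CPM in DMSO. At 4 h it had 7.83 and 10.5 CPM in dTAG, against 7.54 and 5.37 CPM in DMSO. The arms did not overlap at 8 h and overlapped at 4 h. It fell by 1.42 ± 0.39 on the log2 scale at 8 h (adjusted p = 0.030), the 1 call among 31 tested members, where 8.11% of all genes were called. The call was lost with DESeq2 (adjusted p = 0.11), on all reads (0.55) and without 3 of the 4 libraries at 8 h in turn (0.11 to 0.25). The median over the 31 was -0.31, with 23 negative and 10 at an unadjusted p under 0.05. The difference between the drug effects at 8 h and 4 h had 0 calls among members, with 4 at an unadjusted p under 0.05, and 0.569% of all genes were called. DESeq2 called 0 members there.

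At the same 8 h most G1/S genes were lower in dTAG. Of 25 tested, 21 fell in dTAG and none rose, where 4.61% of all genes were called lower. Their median was -1.87, and the difference from the member median of -0.31 was not tested. CCNE2, a cyclin of S phase entry, changed by -5.21 ± 0.53, CDT1, a replication licensing factor, by -4.19 ± 0.85, and the transcription factor E2F1 by -3.91 ± 0.50. E2F1 had 0.260 and 1.15 CPM in dTAG, against 13.1 and 9.37 CPM in DMSO. In the list of histone gene regulators 4 fell and 1 rose, with NPAT at -0.61 ± 0.16, CASP8AP2 at -0.69 ± 0.18 and SLBP at -0.50 ± 0.15. Of 12 chaperones 4 fell and 1 rose, among them ASF1B, which carries H3 with H4 (-2.04 ± 0.43), and CHAF1A (-2.01 ± 0.25). None of the 15 mitotic genes was called, with 0 at an unadjusted p under 0.05. NIPBL RNA was higher in dTAG (0.48 ± 0.13), and since the degrader acts on the protein this does not check the labels.

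**Figure D4:**
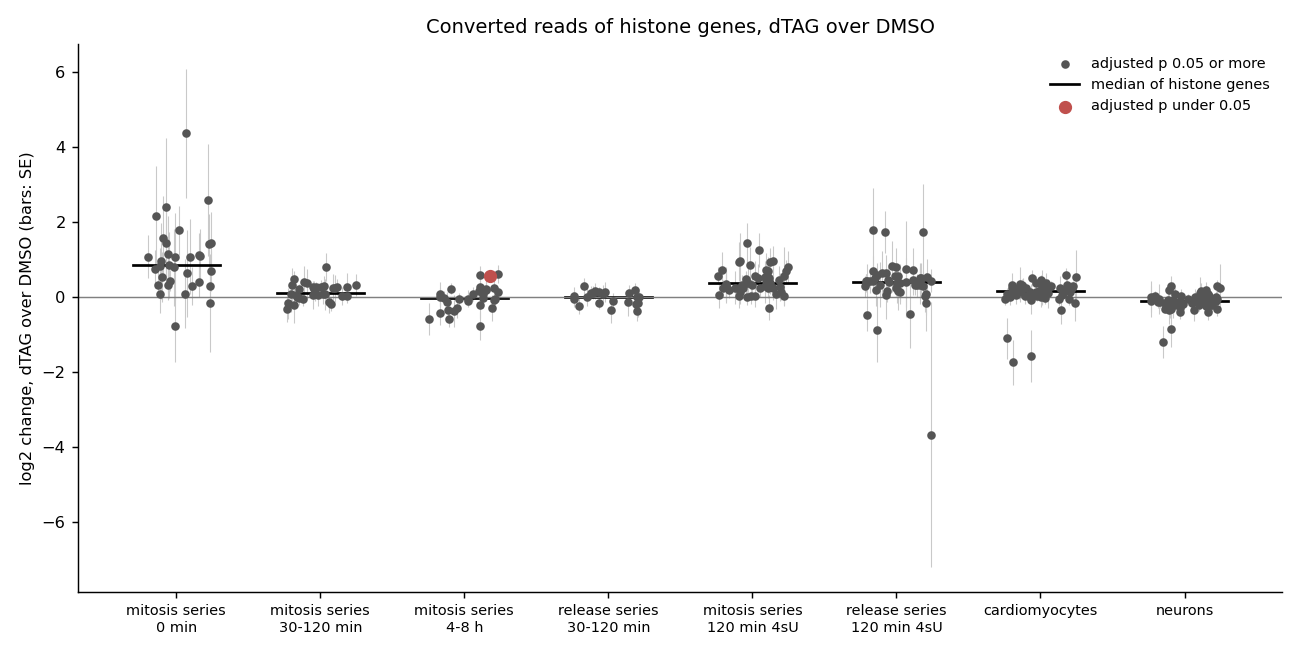
Log2 change of the tested members between dTAG and DMSO in 8 comparisons, with 1 point and SE bar per member and a line at the median. In the mitosis series the median was 0.85 at 0 min and 0.10 for the average after release, and the 1 red point, at 4 to 8 h, is HIST1H2AC.

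The libraries with 120 min of 4sU gave more converted reads per gene and 50 tested members. In the mitosis series edgeR called 0 of 50 between dTAG and DMSO (2.45% of all genes), with 7 at an unadjusted p under 0.05, and DESeq2 called 0. The median was 0.36, with 49 positive, and 1 library carried it: members made 0.150, 0.159 and 0.333% of converted reads in dTAG, against 0.149, 0.143 and 0.184% in DMSO. Without that replicate 3 of dTAG, 1 member had an unadjusted p under 0.05. In the release series edgeR called 0 of 50 (0.718% of all genes), with 1 at an unadjusted p under 0.05, and DESeq2 called 0. The difference between the drug effects of the 2 series had 0 calls by edgeR, with 0 at an unadjusted p under 0.05, and 0% of all genes were called.

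The mitosis and release series were then compared within DMSO, a comparison chosen after the values were seen. In DMSO with 120 min of 4sU, all 50 tested members were higher in the mitosis series than in the release series, where 38.6% of all genes were called and 20.2% called higher. The median log2 change was 3.04, and the lowest was 0.87 for the H3 gene HIST1H3E. Over members with more than 3 converted reads in the release series, the highest was 5.47 ± 1.19 for the H2A gene HIST2H2AA4, which had 187 converted reads in the mitosis series and 6 in the release series. Its libraries had 0.137, 7.19 and 7.12 CPM in the mitosis series, against 0.155, 0.124 and 0 CPM in the release series. Replicate 1 of the mitosis series thus lay within the range of the release series for this gene. HIST1H4I and HIST2H4A, with 1 read each in the release series, are given no fold. HIST1H2AC had 95.5, 104 and 112 CPM in the mitosis series, against 11.5, 7.98 and 6.90 CPM in the release series (3.57 ± 0.26, adjusted p = 4.8e-07). HIST1H4E had 128, 161 and 167 CPM, against 31.5, 9.87 and 17.4 CPM (2.97 ± 0.35, adjusted p = 2.3e-05). No library of one series overlapped with the other in HIST1H2AC and HIST1H4E. Relative to all reads 48 members stayed higher (45.1% of all genes called), and on all reads 18 of 58 were higher (21.2% of all genes called). Of 15 mitotic genes 14 were also higher in the mitosis series, with a summed level of 970 to 1557 CPM, against 130 to 238 CPM, and its part in the histone values was not tested. Series and batch cannot be told apart.

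The share of a gene's reads that were converted showed the same contrast. Over members with at least 100 reads, HIST1H4C left out, the median converted share in the mitosis series was 45.6% in dTAG and 43.0% in DMSO, where the median over all genes was 28.8% and 29.9%. In the release series it was 9.44% in dTAG and 7.82% in DMSO, where the median over all genes was 35.3% and 35.9%. So most members were converted more than the typical gene in the mitosis series and less in the release series.

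HIST1H4C stood apart from the other members in this share. With 15 min of 4sU its converted share was 25.3% in DMSO at 0 min, 26.5% at 60 min, 28.3% at 120 min and 30.1% at 8 h. The median of the other members was 2.28, 5.00, 2.53 and 3.09% at those times. In RPE-1 with 120 min of 4sU it was 62.4% in dTAG and 59.1% in DMSO of the mitosis series, within the range of the other members. In the release series it was 30.1% in dTAG and 27.9% in DMSO (others 9.44 and 7.82%). In WTC11 cells it lay with the other members: 21.4% in dTAG and 19.5% in DMSO cardiomyocytes (others 25 and 23.1%), and 12.2% in dTAG and 13.6% in DMSO neurons (others 12.7 and 14.1%). The cause of this difference between the lines was not tested. Without libraries lacking 4sU, it is not known how many converted reads of HIST1H4C are new RNA. Since HIST1H4C holds many of the converted histone reads at 0 min, the summed share was also taken without it: in DMSO its mean was 0.0147% of converted reads at 0 min, 0.0442% at 60 min and 0.0847% at 120 min, in the same order.

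**Figure D5:**
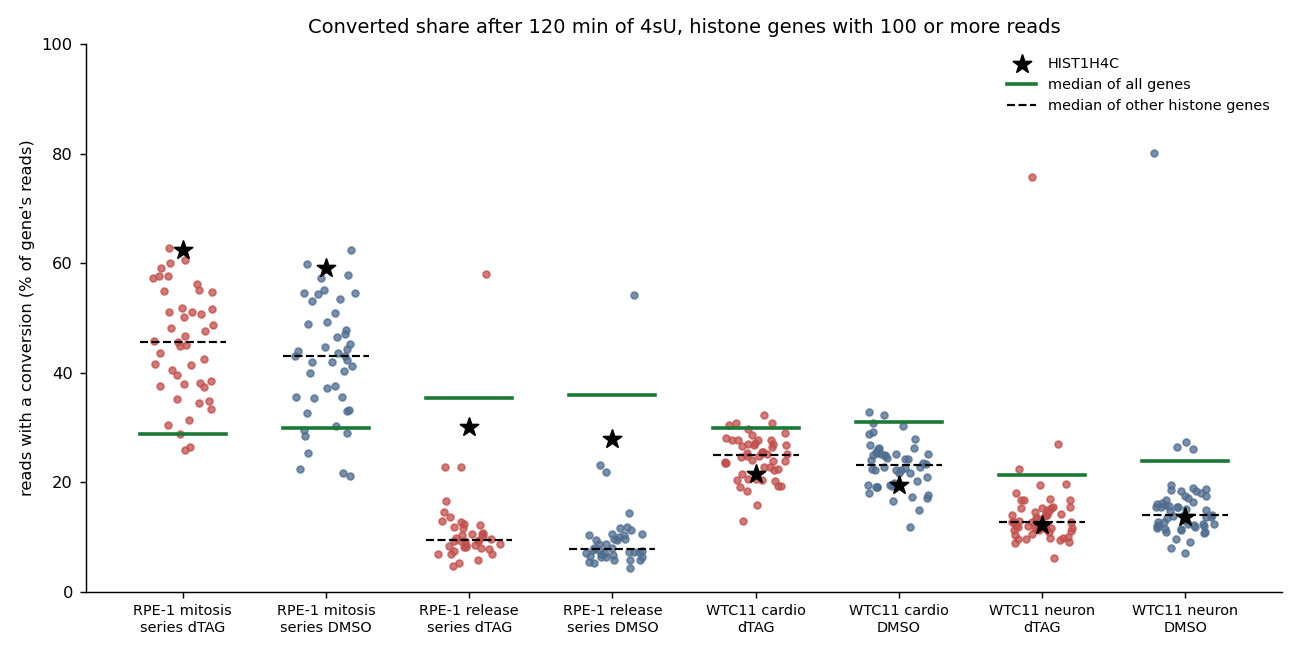
Percentage of each member's reads that were converted in the 8 groups with 120 min of 4sU, for members with at least 100 reads. The star is HIST1H4C, the dashed line the median of the other members and the green line the median of all genes. The dashed line lies above the green one in the mitosis series (45.6% in dTAG, 43.0% in DMSO) and below it in the release series (9.44% in dTAG, 7.82% in DMSO).

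WTC11 cells are described by the labels as past division, and members were read in both cell types. They made 0.107 and 0.131% of converted reads in dTAG and 0.112 and 0.0946% in DMSO cardiomyocytes, and 0.140 and 0.168% in dTAG and 0.161 and 0.165% in DMSO neurons. The 6 cycling cell genes summed to 299 to 344 CPM in dTAG and 261 to 344 CPM in DMSO cardiomyocytes, and to 503 to 520 CPM in dTAG and 494 to 512 CPM in DMSO neurons. In RPE-1 libraries, scaled separately, these genes summed to 59.7 to 5218 CPM. The mitotic genes summed to 617 to 835 CPM in cardiomyocytes and 1099 to 1121 CPM in neurons, both drugs together. Whether all cells were past division, and the part of cycling cells in the histone values, was not tested. In cardiomyocytes edgeR called 0 of 58 tested members between dTAG and DMSO (4.81% of all genes), with 7 at an unadjusted p under 0.05, and DESeq2 called 0. Relative to all reads HIST1H1C and HIST1H3B were called higher (1.82% of all genes called), and without replicate 1 of dTAG 2 members were. In neurons edgeR called 0 of 58 (2.23% of all genes), with 2 at an unadjusted p under 0.05, and DESeq2 called 0. The medians were 0.16 in cardiomyocytes and -0.12 in neurons. The difference between the cell types had 0 calls by edgeR (0.594% of all genes), with 7 at an unadjusted p under 0.05. HIST1H1B had 57.6 and 68.8 CPM in dTAG and 55.0 and 48.8 CPM in DMSO cardiomyocytes (0.28 ± 0.11, adjusted p = 0.21). In neurons it had 79.8 and 84.8 CPM in dTAG and 86.1 and 88.3 CPM in DMSO. HIST1H3B had 40.4 and 48.5 CPM in dTAG and 55.2 and 37.9 CPM in DMSO cardiomyocytes (-0.07, and 0.36 relative to all reads). In neurons it had 48.1 and 47.6 CPM in dTAG and 46.0 and 47.4 CPM in DMSO.

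Which members were read differed between the lines. The genes of the next sentences were chosen after their values were seen, as members with under 100 reads in one line and over 500 in the other. In the RPE-1 libraries, with 4481 M reads in all, 8 members had under 100 reads while the WTC11 libraries, with 235 M reads, had over 500. HIST1H2BH, an H2B gene, had 59 reads in RPE-1 and 10756 in WTC11, and the linker histone gene HIST1H1D had 64 and 6550. In all, 6 of the 8 lie at chr6:26234268-26273356, with 14 to 91 reads each in RPE-1 and 621 to 10756 in WTC11. The other members between them, HIST1H4G and HIST1H2APS4, had 12 and 11 reads in RPE-1 and 2 and 66 in WTC11. In the other direction 5 members passed the cutoffs, which take no account of depth. Per 1000000 reads 4 of them were lower in WTC11, and the pseudogene HIST1H3PS1 was not, with 0.127 in RPE-1 and 0.213 in WTC11. HIST1H3C had 53981 reads in RPE-1 and 44 in WTC11. Per 1000000 reads HIST1H3C reached 12 in RPE-1 and 0.187 in WTC11. The lines also differ in cell type and culture, so line and cell type cannot be told apart.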

How the data were processed

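Per the file headers, the deposited tables give, for each gene and library, the count of reads with a T-to-C conversion, the count of all reads, and the fraction of covered T positions that were converted, which was not tested. Both counts are whole numbers, and the authors deposited no normalised values. Per the submitters' processing notes, HISAT, Picard and HTSeq were used on hg38, with versions and options not given in the sources used here. A gene not listed in a library was taken as 0. Starts in the files count from 0, so 1 was added.

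Converted reads were tested with edgeR's quasi-likelihood test, two-sided, with TMM scaling, a minimum count of 10 and minimum total of 15, and Benjamini-Hochberg adjustment over all genes of each fit, with a threshold of 0.05. The mitosis series at 0 to 120 min, the same at 4 to 8 h, the release series, the libraries with 120 min of 4sU and the WTC11 libraries each had 1 fit, and all mitosis series libraries with 15 min of 4sU had another for late against early times. CPM are converted reads per 1000000 TMM-scaled converted reads. Depth limits what members with few converted reads can show. On data simulated from these libraries, the share of genes changed by a log2 of 1 that was recovered was 85.7% for the average over 30 to 120 min in the mitosis series (14220 genes) and 86.5% in the release series (13941 genes). It was 81.8% for 4 to 8 h (14583 genes), 70.8% for cardiomyocytes (18676 genes) and 52.6% for the mitosis series with 120 min of 4sU (16581 genes). The changed genes were drawn at random from all tested genes, so these shares were not measured for the members. Each gene was simulated at its mean over all libraries of its fit, which leaves out differences between times or cell types.

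The members and lists were chosen with earlier results of these data known. Named members were the 3 with the highest mean CPM in each class and fit, and up to 4 called members per class and direction with the largest change. Up to 3 called genes per list and NIPBL were added. The lists held histone gene regulators, replacement histones, chaperones, G1/S genes, mitotic genes, cardiomyocyte markers and cycling cell genes. The comparisons of 120 with 60 min and of the mitosis with the release series were chosen after seeing the data. Alternatives were other scaling, DESeq2, no filter, all reads, converted reads relative to all reads, a replicate block and leaving out libraries.

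Same-numbered dTAG and DMSO libraries deviated together in every pair, with 3 pairs each, at 0 min of the mitosis series (correlation 0.16 to 0.52), at 120 min of the release series (0.17 to 0.40) and in the mitosis series with 120 min of 4sU (0.14 to 0.53). Other groups were not counted as paired, having fewer pairs or a lower lowest correlation. Some were still positive in every pair: 30, 60 and 90 min of the mitosis series (0.23 to 0.41, 0.08 to 0.40 and 0.06 to 0.24), among others. The pairing comes from the data, not the labels. Fits ran in R 4.3.3 with version 4.0.16 of edgeR, 3.58.1 of limma, 1.42.0 of DESeq2 and 1.17.8 of the reader data.table. Tables and plots were made in Python 3.11.15, using pandas 2.3.3 with numpy 2.4.6 and, for plots, matplotlib 3.10.9.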

Additional observations from a re-analysis of the deposited data

Results flagged for a closer look

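In 6 groups of 4 libraries, 19 histone values each were searched for a library far from the other 3, meaning that its gap to the nearest exceeded 0.829 of the group's range. This held for 14 of 114 searches. Chance alone gives about 1 in 20, and the values of 1 library are not independent.

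In DMSO at 120 min of the mitosis series, replicate 3 was high in 6 values. Members made 0.208% of its converted reads and 0.225% of its all reads, and 0.153% of converted reads without HIST1H4C. It had 298 CPM of HIST1H1C, a linker histone gene, 43.0 CPM of the H2A gene HIST1H2AG and 46.3 CPM of the H4 gene HIST1H4H.

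At 90 min the remaining 8 values stood apart. In dTAG, replicate 2 was high in the share of converted reads (0.0787%, and 0.0620% without HIST1H4C), replicate 3 in the share of all reads (0.0725%) and in HIST1H2AG (26.9 CPM), and replicate 1 was low in HIST1H2AC, with 54.5 CPM against 80.3 to 83.4 CPM. In DMSO, replicate 2 was high in the H2B genes HIST1H2BC (32.2 CPM) and HIST1H2BD (38.7 CPM), and replicate 1 was low in HIST1H4H, with 23.9 CPM against 30.7 to 31.3 CPM. No cause of these values was tested.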

How the results depend on the processing

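Depth limits members with few converted reads, and 33 of the 85 passed the filter at 0 to 120 min. Of the counts of called members under alternatives, 197 stayed within 1.5 times the main count without a turn in direction, 45 moved by more and 5 turned. Of the values of single members, 3979 kept direction and side of the threshold, 169 no longer passed it, 53 came to pass it and 41 turned. The causes were not tested. Counts given below without a share of all genes show only how calls moved, and are no result about the members.

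On all reads, 49 members were called for DMSO 120 against 0 min (21.5% of all genes). There were 30 for 120 against 60 min (10.3%), 30 for dTAG 120 against 0 min and 18 for mitosis against release (21.2%). For dTAG against DMSO at 8 h 0 were called. HIST1H2BC turned to 0.96 at 120 against 60 min, and HIST1H4C to -0.0327 for mitosis against release.

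Relative to all reads, 1 was called for DMSO 120 against 0 min (16.1% of all genes) and 14 for 120 against 60 min (29.1%). There 5 were called for 60 against 0 min (23.1%), 2 for dTAG 120 against 0 min (24.1%) and 2 in cardiomyocytes (1.82%). The count was 2 for 8 against 4 h, and 0 for the drug effect over 4 to 8 h and at 8 h. Log2 changes that turned at 120 against 0 min in DMSO were -0.0754 for HIST1H4C, -0.40 for HIST1H4H, -0.57 for HIST1H2AC, -0.41 for HIST1H2AG, -0.62 for HIST1H1C, -0.0936 for HIST1H1E, -0.78 for HIST1H2BC, -0.0725 for HIST1H3B, -0.29 for HIST1H3C, -0.0552 for HIST1H3H, -0.14 for HIST2H2BF, -0.67 for HIST2H2BE and -0.47 for HIST2H2AC. At 120 against 60 min they were -0.25 for HIST1H4E, -1.19 for HIST1H4H, -1.15 for HIST1H2AC, -1.0 for HIST1H2AG, -0.15 for HIST1H1C, -0.23 for HIST1H1E, -0.91 for HIST1H2BD, -0.29 for HIST1H3C, -0.43 for HIST2H2AC, -0.29 for HIST2H2AB, -0.52 for HIST1H4B and -0.84 for HIST2H2BF. HIST1H2AK turned to -0.62 at 60 against 0 min. In dTAG at 120 against 0 min they were -0.11 for HIST1H4C, -0.335 for HIST1H4E, -0.275 for HIST1H4H, -0.0299 for HIST1H2AC, -0.39 for HIST1H2AE, -0.83 for HIST1H1C, -0.60 for HIST1H1E, -0.16 for HIST1H2BD, -0.48 for HIST1H2BC, -0.105 for HIST2H2BF, -1.37 for HIST2H2BE and -0.19 for HIST1H4B. HIST1H3B turned to 0.36 in cardiomyocytes.

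For DMSO 8 against 4 h, DESeq2 called 3, a minimum log2 change of 1 left 2, and scaling by all read totals gave 3 (1 lower, 2 higher). For the drug effect over 4 to 8 h, 0 were left at a minimum log2 change of 1, and 2 were called without the filter and with all read totals. At 8 h, DESeq2 called 0, the fit without the filter 3, all read totals 3 and the replicate block 2. The difference between 8 and 4 h gained 1 without the filter and 1 with all read totals. With 120 min of 4sU the mitosis series gained 4 without the filter, and neurons fitted alone gained 1.

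Leaving out libraries gave 16 to 26 members for DMSO 120 against 0 min, 6 to 13 for 60 against 0 min, 13 to 17 for 120 against 60 min, 6 to 25 for dTAG 120 against 0 min (16 in all libraries, 8 without replicate 1, 6 without replicate 2 and 7 without replicate 4), 1 to 3 for the drug effect over 4 to 8 h (3, mostly lower, without DMSO replicate 2 at 6 h), 0 to 2 at 8 h, 0 to 5 for DMSO 8 against 4 h, 42 to 50 for mitosis against release and 0 to 2 in cardiomyocytes. The other drug comparisons stayed at 0.

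The replicate block changed no call where the numbers paired the libraries. Elsewhere it gave 26 members for DMSO 120 against 0 min, 14 for 60 against 0 min and 22 for dTAG 120 against 0 min.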

Other observations

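HIST2H2BA, an H2B pseudogene chosen after its value was seen, had a converted share of 75.7% in dTAG neurons and 80.1% in DMSO neurons, where the median of the other members was 12.7 and 14.1%. With under 100 reads, 57 of 64 were converted in dTAG and 53 of 81 in DMSO cardiomyocytes. In RPE-1 with 120 min of 4sU these were 25 of 45 and 30 of 51 in the mitosis series, and 11 of 29 and 17 of 67 in the release series. Its span overlaps RP11-439A17.10 on the same strand. The cause was not tested.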
